A study of Mus musculus with 8 samples.

Results

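The 8 genes described here encode insulin-like growth factor 1 (Igf1), its receptor (Igf1r) and 6 insulin-like growth factor binding proteins (Igfbp2 to Igfbp7). They were taken by symbol as a family, with no threshold on a value but with earlier results of these data known, and make up 8 of the 55385 genes with counts in the series. Fetal lungs of C57BL/6 mice were studied after tracheal occlusion (TO), in which the trachea is tied so that the fluid secreted by the lung cannot leave it, and the comparison asks which mRNAs differ between TO and control lungs. The TO fetuses had their trachea ligated through the uterine wall at E16.5, with a suture that also took in one carotid artery and jugular vein, and their dams received progesterone. The sources used here do not say whether the control fetuses had sham surgery, or which fetuses shared a dam. RNA was taken at E18.5 from homogenized entire lungs, 4 control and 4 TO, and each library is from 1 lung.

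IGF1 is a secreted growth factor made largely by mesenchymal cells in the lung, and it acts through IGF1R, a receptor tyrosine kinase that drives the PI3K-Akt and the Ras-ERK branches of signaling. Most IGF in tissue and blood is held by IGFBPs, which lengthen its life, carry it to the cell surface or matrix, or keep it from the receptor, and proteases release it by cutting them. Mice that lack Igf1 or Igf1r have poorly developed lungs at birth, with thick septa and little air space.

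The deposited values were raw counts of read pairs per gene, counted without regard to strand. Counts on genes numbered 22822261 to 35002061 in 7 libraries and 270078 in TO 1. Levels below are CPM, the counts of a gene scaled to a common library total, after TMM factors had evened out differences in library composition. Values are given in the order control 1 to 4 and TO 1 to 4. The study's own figure of these data names 6 of the specimens, controls 1, 2 and 4 with TO 2, TO 3 and TO 4, and these formed the main comparison. It was made by edgeR's quasi-likelihood test, adjusted after Benjamini and Hochberg over the 21859 genes that reached 5 reads in no fewer than 3 of the 6 libraries, at a threshold of 0.1. Each of the 8 genes passed this filter. The labels give each lung as a separate specimen, and the p-values measure the spread between these specimens. By the digits in the specimen names the main comparison is unbalanced: controls carry 3482, 3573 and 3482, and TO lungs 3573, 3604 and 3482. A difference tied to 3604 cannot be told apart from TO there. Tests without a block take the lungs as independent, though control and TO lungs with the same digits deviated together from their group means. All 7 of the lung epithelium markers examined, among them Nkx2-1 and Sftpc, had at least 5 reads in each of the 7 deep libraries, as did all 7 lung mesenchyme markers and all 6 endothelium markers. Markers of lung cells were thus present, and so were those of muscle. The summed level of 6 cardiomyocyte markers ran from 422 to 4464 CPM in control and from 2222 to 5312 CPM in TO lungs. That of 5 skeletal muscle markers ran from 13.9 to 163 CPM in control and from 120.2 to 1697 CPM in TO lungs, with the highest value in TO 1. All 6 cardiomyocyte and 4 of the 5 skeletal muscle markers passed the same 5 reads, so that rule does not tell lung from other tissue.

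Igfbp3 and Igfbp2 were the members that separated the groups in the main comparison, in opposite directions, and the sequences in front of their starts are shown for that reason. They are the 250 bases before a RefSeq start in the direction of the gene on GRCm38, at chr1:72824230-72824479 on the plus strand for Igfbp2, the one nearer to the GENCODE start of its pair of RefSeq starts, and at chr11:7213924-7214173 on the minus strand for Igfbp3. Both strands were searched for GGGCGG, which transcription factors of the Sp family bind, and for TATATA, and matches are in capitals.
Igfbp2: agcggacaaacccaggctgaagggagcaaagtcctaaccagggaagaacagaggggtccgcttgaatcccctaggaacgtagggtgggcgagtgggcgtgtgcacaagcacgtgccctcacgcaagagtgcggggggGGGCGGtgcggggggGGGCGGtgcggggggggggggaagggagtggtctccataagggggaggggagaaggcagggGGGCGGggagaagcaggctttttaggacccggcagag
Igfbp3: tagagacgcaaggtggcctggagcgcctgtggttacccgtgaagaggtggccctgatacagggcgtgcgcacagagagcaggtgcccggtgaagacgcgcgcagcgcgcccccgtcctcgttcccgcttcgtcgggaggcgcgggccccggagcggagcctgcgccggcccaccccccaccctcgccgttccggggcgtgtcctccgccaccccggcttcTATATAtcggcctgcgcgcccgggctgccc
The window of Igfbp2 shown holds 3 copies of GGGCGG and that of Igfbp3 holds 1 TATATA and no GGGCGG. The other start of Igfbp2, with its window at chr1:72825137-72825386, has 0 copies of GGGCGG. G and C make up 67.2% of the first window of Igfbp2, 56.4% of the second and 73.2% of that of Igfbp3. Among 32851 RefSeq windows of the same length, 32.7% hold GGGCGG on either strand and 5.25% hold TATATA. Of the other members, Igfbp7 has 4 copies of GGGCGG and Igf1r 2, while Igfbp4 and Igfbp6 have 1 TATAAA each, a run found in 12.4% of all windows. The windows of Igf1 and Igfbp5 held none of these letter runs. The RefSeq start of Igf1 lies 2846 bases from its GENCODE start, and its window falls inside the gene. The bases before the GENCODE start of Igf1 were thus not searched. For Igf1r the starts lie 570 bases apart.

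In the 6 libraries, 0 of the 8 members were called by edgeR at an adjusted p under 0.1, as were 0% of all genes tested. At an unadjusted p under 0.05 there were 2 members, Igfbp3 higher and Igfbp2 lower in TO, against a background of 5.14% of all genes. The same 2 members were the ones whose 3 TO lungs did not overlap the 3 control lungs, against 10.9% of all genes. By fold change 5 members were higher and 3 lower in TO, where 49.3% of all genes were higher, and the median log2 fold change was 0.093 over the members and -0.0045 over all genes. With all 8 libraries 3 members were higher and 5 lower, where 46.8% of all genes were higher, and the median was -0.12 over the members and -0.018 over all genes. There 0 members and 0% of all genes were called, Igfbp3 alone had an unadjusted p under 0.05 beside 2.35% of all genes, and 0 members had groups that did not overlap, against 2% of all genes. With the replicate numbers as a block in the 8 libraries 0 members were called, beside 0.0133% of all genes, and 4 had an unadjusted p under 0.05 (Igfbp3 and Igfbp5 higher, Igfbp2 and Igf1r lower) beside 4.4% of all genes. With the specimen digits as the block in the 8 libraries, 0 members and 0% of all genes were called. Igfbp3 and Igfbp5, higher, and Igfbp2, lower, had an unadjusted p under 0.05 there, beside 5.11% of all genes. Igf1r did not (edgeR, unadjusted p = 0.0805). These RNAs came from whole lung, in which fewer cells of a type and less RNA per cell cannot be told apart.

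**Figure D1:**
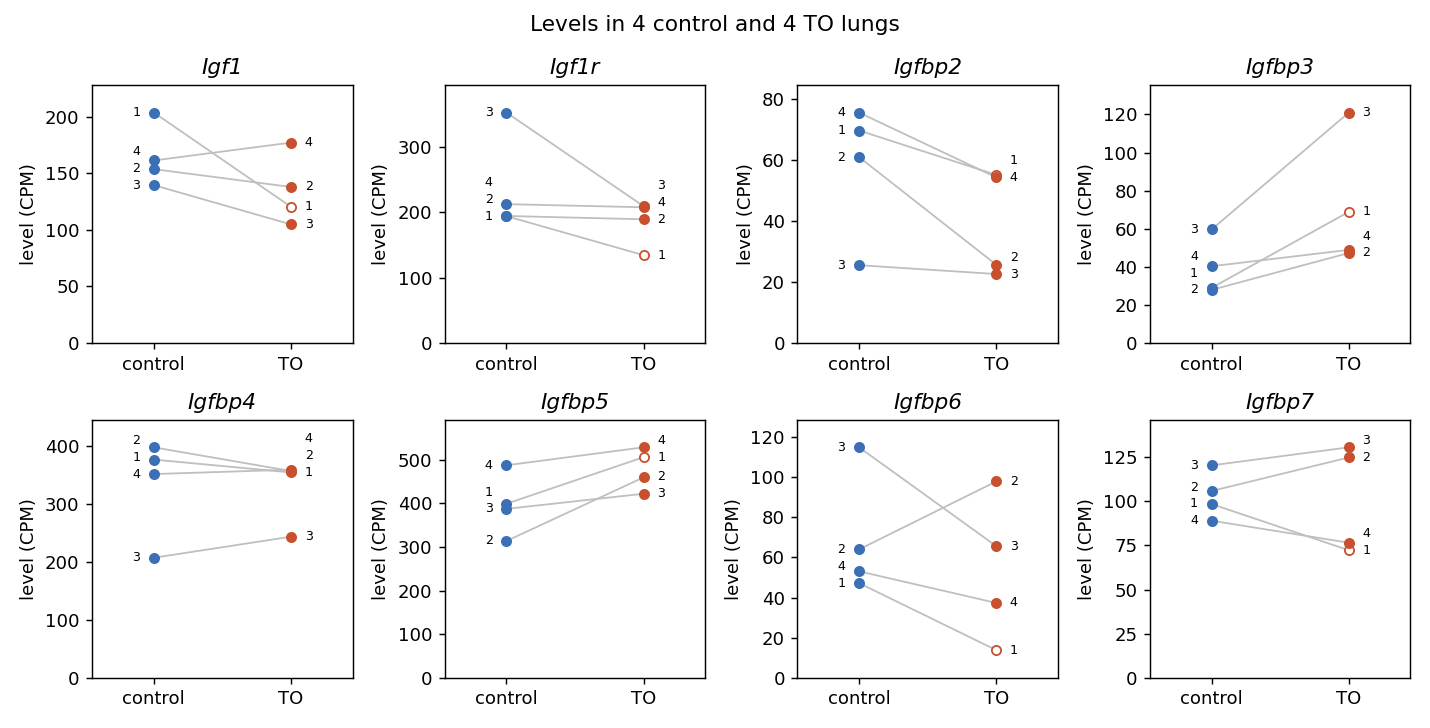
Level of each of the 8 genes in CPM (y axis) in control and TO lungs (x axis), with 1 point per lung, the replicate number beside it (moved apart where points lie close) and gray lines joining lungs of the same number. The open circle is TO 1, the library with 270078 counts. All 4 lines rise for Igfbp3 and Igfbp5 and fall for Igfbp2 and Igf1r.

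Igf1, the ligand, lies at chr10:87858265-87937042 on the plus strand (ENSMUSG00000020053.18, GRCm38, GENCODE M21). Its level was 204, 154, 139.7 and 162 CPM in controls 1 to 4 and 121, 138, 105 and 177 CPM in TO 1 to 4. The highest lung was control 1 and the lowest TO 3, but TO 4 lay above 3 of the 4 controls, so the groups overlapped. In the 6 libraries the mean was 173 ± 27.0 CPM in control and 140.1 ± 36.3 CPM in TO lungs (SD, n = 3), a log2 fold change of -0.30 (SE 0.20, edgeR, adjusted p = 0.909). The fold change was -0.27 (SE 0.18) with all 8 libraries, and it was below 0 in the main comparison and in each of the other 20 fits made with another setting. The difference between TO and control lungs was smaller than the range within either group.

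Igf1r, the receptor that carries the signal of both IGFs, lies at chr7:67952827-68233668 on the plus strand (ENSMUSG00000005533.10). Its level was 194, 194, 352 and 212 CPM in controls 1 to 4 and 134, 189, 209 and 208 CPM in TO 1 to 4. Control 3 stood far above the other controls, and TO 1, with 39 reads on this gene, stood lowest. Between controls 1, 2 and 4 at 200.2 ± 10.5 CPM and TO 2, 3 and 4 at 202 ± 11.1 CPM there was a log2 fold change of 0.011 (SE 0.10, edgeR, adjusted p = 0.994). With all 8 libraries it was -0.34 (SE 0.21), and each TO lung was lower than the control of the same number, by ratios of 0.692, 0.974, 0.594 and 0.977. Of all genes, 8.37% were lower in TO in each of the 4 pairs. For Igf1r this depends on the matching by number, since TO 4 lay above control 1. Lungs numbered 1 and 4 carry the same digits in their specimen names. In pairs 2 and 4 the ratio was close to 1, so the difference in the 8 libraries lay in control 3 and TO 1, the lungs that the main comparison does not hold.

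Igfbp3, the main carrier of IGF in adult blood, lies at chr11:7206086-7213923 on the minus strand (ENSMUSG00000020427.11). Its level was 28.9, 27.9, 59.6 and 40.3 CPM in controls 1 to 4 and 68.9, 47.2, 121 and 48.9 CPM in TO 1 to 4. Each TO lung was higher than controls 1, 2 and 4, while control 3 was higher than TO 2 and TO 4. TO 3 was the highest of the 8 lungs. The mean was 32.4 ± 6.87 CPM in the 3 controls and 72.4 ± 42.1 CPM in the 3 TO lungs of the main comparison (SD), a log2 fold change of 1.15 (SE 0.35, edgeR, unadjusted p = 0.00861, adjusted p = 0.907). Without TO 3 the log2 fold change was 0.58, and with the replicate block in the 6 libraries, which rests on pairs 2 and 4, it was 0.52 (edgeR, adjusted p = 0.269). DESeq2, the tool the study names, gave 1.17 with an adjusted p of 0.0771, which passes the threshold as 0.201% of all genes did, and edgeR without a filter on low counts gave an adjusted p of 0.0760, beside 0.127% of all genes called. With all 8 libraries the log2 fold change was 0.87 (SE 0.33, edgeR, unadjusted p = 0.0230, adjusted p above the threshold). Each TO lung was higher than the control of its number, by 2.38, 1.69, 2.03 and 1.21 times, where 4.46% of all genes were higher in TO in each of the 4 pairs. Replicate numbers as a block in the 8 libraries gave 0.77 (SE 0.17, edgeR, unadjusted p = 0.00041, adjusted p = 0.376).

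Igfbp2, a binding protein abundant in fetal tissues, lies at chr1:72824503-72852474 on the plus strand (ENSMUSG00000039323.18). Its level was 69.6, 60.9, 25.5 and 75.5 CPM in controls 1 to 4 and 55.1, 25.6, 22.6 and 54.3 CPM in TO 1 to 4. The lungs lay in a low set of control 3, TO 2 and TO 3, from 22.6 to 25.6 CPM, and a set from 54.3 to 75.5 CPM, so that each group had lungs in both. Of the low set, control 3 and TO 3 carry the digits 3604, and the main comparison holds TO 3 but not control 3. TO 2 carries 3573, as does control 2 at 60.9 CPM. Controls 1, 2 and 4 had a mean of 68.7 ± 7.35 CPM and TO 2, 3 and 4 of 34.2 ± 17.5 CPM (SD), a log2 fold change of -1.0 (SE 0.30, edgeR, unadjusted p = 0.00928, adjusted p = 0.907). It was called when the replicate numbers were used as a block in the 6 libraries, where the log2 fold change was -0.86 (SE 0.18, edgeR, adjusted p = 0.0121) beside 1% of all genes called. In that fit numbers 2 and 4 are the only pairs, since control 1 and TO 3 have no partner there, which leaves 1 residual degree of freedom. The SE and p of that fit thus draw on the spread of other genes, and the ratios of the pairs were 0.421 and 0.719. Igfbp2 was also called without TO 4, at -1.51 (SE 0.15, edgeR, adjusted p = 0.0210), beside 0.692% of all genes called. DESeq2 gave -0.99 (adjusted p = 0.132). With all 8 libraries the log2 fold change was -0.67 (SE 0.37), and each TO lung was lower than the control of its number, at ratios of 0.791, 0.421, 0.886 and 0.719. With the block in the 8 libraries the log2 fold change was -0.59 (SE 0.18, edgeR, unadjusted p = 0.00618, adjusted p = 0.959).

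Igfbp5, which binds to extracellular matrix, is the neighbor of Igfbp2, at chr1:72857932-72874884 on the minus strand (ENSMUSG00000026185.8), with 5457 bases and no protein-coding gene between them. Its level was 399, 314, 388 and 488 CPM in controls 1 to 4 and 506, 459.7, 422 and 529 CPM in TO 1 to 4. The TO lungs held the highest values, but control 4 lay above TO 2 and TO 3. The log2 fold change was 0.23 in the 6 libraries (SE 0.17, edgeR, adjusted p = 0.910) and 0.27 in all 8 (SE 0.15), and each TO lung was higher than the control of its number, by 1.08 to 1.47 times. Although the genes are adjacent, the levels of Igfbp2 and Igfbp5 did not run together over the 7 deep libraries (Pearson r = 0.008, Spearman rho = 0.14, on log2 CPM).

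Igfbp4, which mostly restrains IGF and is cut by the protease PAPP-A, lies at chr11:99041244-99054392 on the plus strand (ENSMUSG00000017493.12). Its level was 377, 398, 207 and 352 CPM in controls 1 to 4 and 355, 357, 244 and 359 CPM in TO 1 to 4. The lungs numbered 3 were the lowest of both groups, and the other 6 lay between 352 and 398 CPM. The log2 fold change was -0.23 (SE 0.16, edgeR, adjusted p = 0.909) in the 6 libraries and -0.025 in all 8 (SE 0.21).

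Igfbp6, which prefers IGF2 over IGF1, lies at chr15:102144362-102149511 on the plus strand (ENSMUSG00000023046.6). Its level was 47.2, 64.0, 115 and 53.1 CPM in controls 1 to 4 and 13.8, 97.9, 65.7 and 37.3 CPM in TO 1 to 4. Both the highest and the lowest of the 8 values came from the lungs that the main comparison does not hold, and the TO 1 value rests on 4 reads (95% Clopper-Pearson interval 3.75 to 35.3 CPM, counting error only). The log2 fold change was 0.29 in the 6 libraries (SE 0.29, edgeR, adjusted p = 0.937) and -0.22 in all 8 (SE 0.39), so its direction depended on which lungs were used.

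Igfbp7, a low-affinity relative found in vessel walls, lies at chr5:77349240-77408041 on the minus strand (ENSMUSG00000036256.13). Its level was 98.5, 106, 120.5 and 89.1 CPM in controls 1 to 4 and 72.3, 125, 131 and 76.5 CPM in TO 1 to 4. The TO lungs fell into a higher and a lower pair, with all 4 controls between them. The log2 fold change was 0.17 in the 6 libraries (SE 0.19, edgeR, adjusted p = 0.939) and 0.013 in all 8 (SE 0.20). The gene shares 85 of its exon bases, 7.03%, with Polr2b on the other strand, and reads there cannot be assigned in counts without strand.

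**Figure D2:**
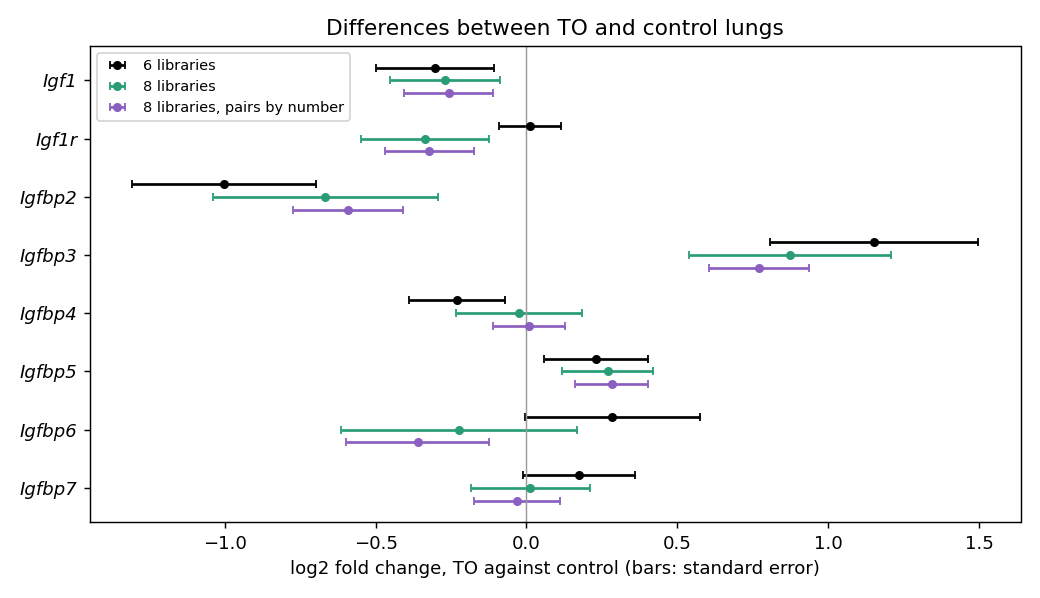
Log2 fold change of TO against control (x axis) for each of the 8 genes (y axis), with the standard error as a bar, from edgeR on the 6 libraries, on all 8 and on all 8 with lungs paired by replicate number. Igfbp3 and Igf1r show the contrast: Igfbp3 lies at 1.15, 0.87 and 0.77, while Igf1r goes from 0.011 to -0.34 and -0.32.

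TO 1 adds a value to each gene at a far lower precision than the other lungs. Its reads numbered 35 on Igf1, 16 on Igfbp2, 20 on Igfbp3, 21 on Igfbp7, 103 on Igfbp4 and 147 on Igfbp5. The 95% Clopper-Pearson interval that these counts allow was 42.1 to 106 CPM for Igfbp3, which lies above the levels of controls 1, 2 and 4. For Igfbp2 it was 31.5 to 89.5 CPM, which takes in the levels of those 3 controls and of TO 4. For Igf1r it was 95.5 to 184 CPM, below the levels of all 4 controls. Reads carry no molecular identifiers, so these intervals cover counting error only.

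To set the genes beside each other, CPM were divided by the length of all exons of the gene in kb. In the 4 control lungs the mean level per kb was 85.6 ± 11 for Igfbp7, 75.5 ± 19.5 for Igfbp4, 66.1 ± 11.9 for Igfbp5 and 62.8 ± 27.8 for Igfbp6 (SD, n = 4), and the ranges of neighbors in this order overlapped. Below them came Igfbp2 at 31.3 ± 12.1 per kb, and its highest control lung, at 40.9, lay under the lowest one of Igfbp6, at 42.4. Igf1 at 16.6 ± 2.79 per kb, Igf1r at 14.2 ± 4.56 and Igfbp3 at 12.5 ± 4.71 were the lowest, and their neighbors in the order overlapped too, Igf1 with Igfbp2 included. With the longest transcript as the length, Igfbp4 at 87.1 and Igfbp7 at 86.2 per kb changed places, and Igfbp2, up to 57.8 per kb in control lungs, overlapped with Igfbp6. The ligand was thus outnumbered per length by the mRNAs of 5 of its 6 binding proteins in the mean of the controls.

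The 6 Igfbp mRNAs together gave 323, 329, 347 and 336 CPM per kb in controls 1 to 4 and 289, 378, 343 and 311 in TO 1 to 4. The controls lay close together and within the range of the TO lungs. The ratio of this sum to the Igf1 level per kb was 15.7, 21.2, 24.6 and 20.6 in controls and 23.7, 27.1, 32.4 and 17.4 in TO lungs, with the highest ratios in TO 3 and TO 2 and the groups overlapping. Within the sum the share of Igfbp3 was 2.87%, 2.70%, 5.49% and 3.83% in controls and 7.62%, 3.99%, 11.3% and 5.02% in TO lungs. The share of Igfbp2 was 11.7%, 10%, 3.97% and 12.2% in controls and 10.3%, 3.68%, 3.56% and 9.44% in TO lungs. Per length of all exons, Igfbp3 exceeded Igfbp2 in TO 3, TO 2 and control 3 only, and with the longest transcript as the length in TO 3 and control 3 only.

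**Figure D3:**
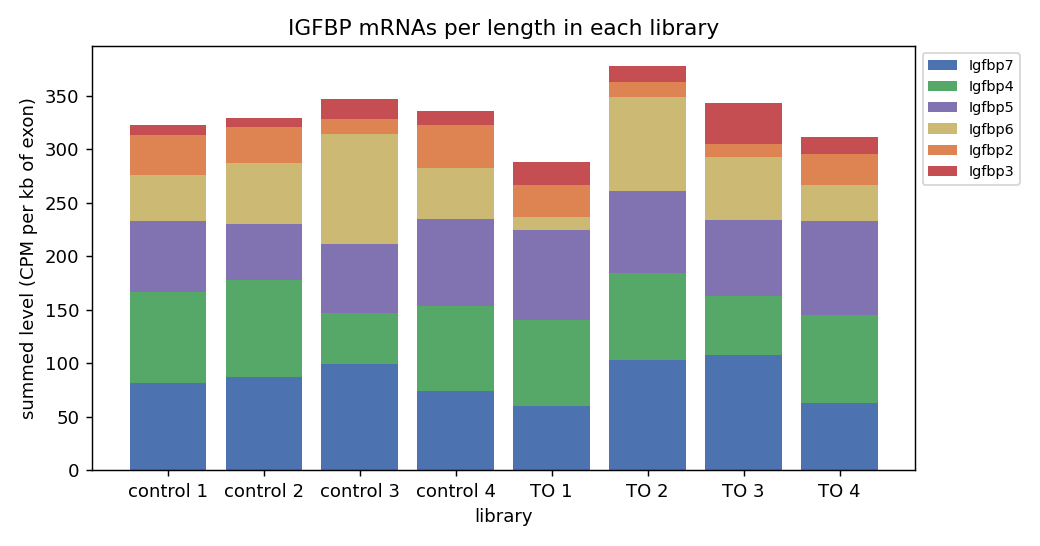
Summed level of the 6 Igfbp mRNAs in CPM per kb of exon (y axis) in each of the 8 libraries (x axis), with 1 color per gene. The sums of the controls run from 323 to 347 and those of TO lungs from 289 to 378, and most of each sum is Igfbp7, Igfbp4, Igfbp5 and Igfbp6.

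The members differed in how far they varied between lungs, whatever the group. Over the 7 deep libraries the highest level was 4.34 times the lowest for Igfbp3, 3.34 times for Igfbp2 and 3.08 times for Igfbp6. For the other 5 it was between 1.68 times, for Igfbp5, and 1.94 times, for Igf1. Among 10758 genes with a mean of at least 10 CPM, the SD of log2 CPM over these libraries put Igfbp2 at percentile 97.0, Igfbp3 at 96.5 and Igfbp6 at 94.5, while Igfbp5 stood at 61.8.

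Some members ran together and others against each other over the 7 deep libraries. On log2 CPM, Igfbp6 and Igfbp7 had r = 0.82 and Spearman rho = 0.82, and Igf1 and Igfbp2 had r = 0.82 and rho = 0.79. Opposite courses were seen for Igfbp2 and Igfbp3 (r = -0.78, rho = -0.82), Igf1 and Igfbp3 (r = -0.83, rho = -0.57) and Igf1r and Igfbp4 (r = -0.82, rho = -0.71). They were also seen for Igfbp2 and Igfbp7 (r = -0.80, rho = -0.75), Igfbp3 and Igfbp4 (r = -0.76, rho = -0.82) and Igf1 and Igfbp7 (r = -0.76, rho = -0.89). Control 3 was both the highest lung for Igf1r and the lowest for Igfbp4. These values describe 7 lungs and include the difference between the groups, and which of the lungs share a dam or a batch is not given.

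By the same measure, the genes most like Igf1 were Patz1 (r = 0.99), Sox9 (r = 0.99), Rad18 (r = 0.98), Ccdc127 (r = 0.97) and Kpnb1 (r = 0.97), out of the 10758. Those most like Igfbp2 were Arhgef39, Zranb3 and Cenpn, and Mcm3, Ube2l3 and Nrep were most like Igfbp4. Cenpn, a centromere protein, and Mcm3, a subunit of the replicative helicase, act in dividing cells. Fgf2, Pfkl and Hif3a were most like Igf1r (r = 0.99 each), but with Spearman rho of 0.79, 0.89 and 0.82 none was among the closest by rank. Igf1r was at 352 CPM in control 3 and at 189 to 212 CPM in the other deep libraries, so this r leans on 1 lung. The genes most like Igfbp3 were Arl4a, Pex7 and Aspg, and those most like Igfbp5 were Dock11, Plat and B4galt6. For Igfbp6 they were Swap70, Ackr2 and Slco2a1, and for Igfbp7 E2f2, Col6a2 and Mdfic. With 7 libraries many of so many genes reach a high r, and by rank correlation 9 of these 26 genes were still among the closest.

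Other groups of genes moved with some of the members across the lungs, which was noticed after their values were seen, and 2 members are shown. The summed level of 6 cell cycle genes was 1579.5, 1289, 426 and 1268 CPM in controls 1 to 4 and 1584, 874, 432 and 1283 CPM in TO 1 to 4. Control 3, TO 3 and TO 2 were its 3 lowest lungs, and they were the 3 lowest for Igfbp2. Control 3 and TO 3, which carry the digits 3604, were also the lowest lungs for Igfbp4, at 207 and 244 CPM. All 6 genes had at least 5 reads in each of the 7 deep libraries. The summed level of the 4 mesothelium markers, of which Msln made up the most, was 213, 359.8, 518 and 317 CPM in controls and 179, 429, 393 and 190.3 CPM in TO lungs, and it put the 8 lungs in the same order as Igfbp6. All 4 were present at 5 reads or more in each of the 7. The part of either group of genes in these members' levels was not tested.

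**Figure D4:**
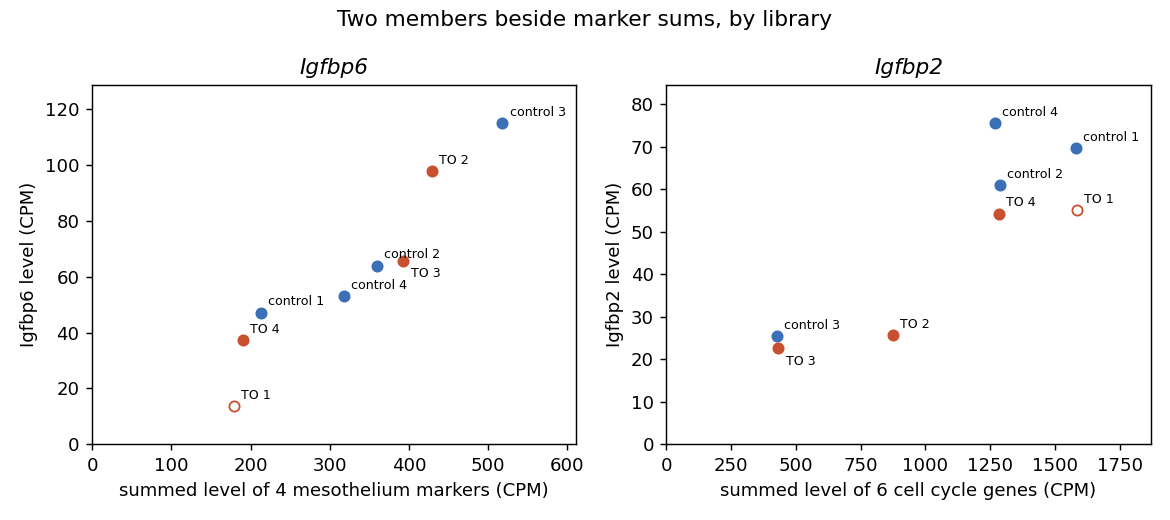
Level of Igfbp6 against the summed level of 4 mesothelium markers (left) and level of Igfbp2 against the summed level of 6 cell cycle genes (right), all in CPM, with 1 point per lung, controls in blue, TO in orange and TO 1 open. Igfbp6 climbs with the marker sum from TO 1 to control 3, and for Igfbp2 the lungs control 3, TO 3 and TO 2 lie apart at low values of both.

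The other marker sums overlapped between the groups when all 8 lungs were taken. That of 6 macrophage and leukocyte markers ran from 202 to 307 CPM in control and from 278 to 411 CPM in TO lungs. It was higher in TO in each of the 4 pairs, as Igfbp3 and Igfbp5 were, and in the 6 libraries of the main comparison it did not overlap, at 202 to 261 CPM in control and 278 to 411 CPM in TO lungs. All 6 of these markers had at least 5 reads in each of the 7 deep libraries. The skeletal muscle sum did not overlap in the 6 libraries either, at 13.9 to 116 CPM in control and 120.2 to 247 CPM in TO lungs, with 4 of its 5 markers at 5 reads or more in each of the 7. That of 6 interferon-stimulated genes ran from 38.0 to 181 and from 32.1 to 330.3 CPM, with TO 3 the highest and control 3 next, the lungs that were also highest or among the highest 3 for Igfbp3. The 5 hepatocyte markers ran from 2.14 to 765 CPM in control and from 10.4 to 316 CPM in TO lungs, and 3 of them were at 0 in at least 1 of the 7 deep libraries. Of all markers examined, 0 were called by edgeR in the 6 libraries, and their part in the members' levels was not tested.

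Of 63 other genes of the pathway, 62 could be tested in the 6 libraries and 0 were called by edgeR, with 44 higher and 18 lower in TO and a median log2 fold change of 0.10, where 49.3% of all genes were higher and their median was -0.0045. At an unadjusted p under 0.05 there were 7 higher and 1 lower, beside 5.14% of all genes, and 11 had groups that did not overlap, beside 10.9% of all genes. With all 8 libraries 30 were higher and 33 lower, 0 had an unadjusted p under 0.05, and the median was -0.011, where 46.8% of all genes were higher, 2.35% had such a p and the median was -0.018.

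Among the ligand, binding proteins and proteases next to the members, 7 of 9 had a log2 fold change above 0 in the 6 libraries. Pappa and Pappa2, proteases that cut IGFBPs, had log2 fold changes of 1.09 (SE 0.38, edgeR, unadjusted p = 0.0183) and 0.76 (SE 0.28, edgeR, unadjusted p = 0.0236), both at an adjusted p of 0.907. Pappa was at 7.80, 7.18, 36.1 and 14.1 CPM in controls 1 to 4 and 6.89, 13.7, 33.2 and 15.4 CPM in TO 1 to 4. Control 3 was thus the highest lung of all for Pappa, and with all 8 libraries its log2 fold change was 0.25. For Pappa2, control 3 at 12.8 CPM lay above TO 2, TO 3 and TO 4, at 12.6, 10.3 and 9.99 CPM. The TO 1 level of Pappa2, 24.1 CPM, rests on 7 reads. The log2 fold change of Pappa2 was 0.59 with all 8 libraries (SE 0.36, edgeR, unadjusted p = 0.125). With all libraries but TO 1 it was 0.45 (SE 0.33, edgeR, unadjusted p = 0.209). Htra1, a secreted protease that also cleaves IGFBPs, was the 1 pathway gene lower at an unadjusted p under 0.05. Its level was 92.1, 78.9, 52.9 and 83.0 CPM in controls and 75.7, 61.3, 43.6 and 65.8 CPM in TO lungs, lower in TO in each of the 4 pairs, with a log2 fold change of -0.57 (SE 0.16, edgeR, unadjusted p = 0.00683, adjusted p = 0.907) in the 6 libraries and -0.37 in all 8. Igf2, the fetal IGF, was listed at 33.2 to 61.8 CPM in control and 36.3 to 92.5 CPM in TO lungs, but 62.8% of its exon bases are shared with Gm49394 on the same strand, where read pairs count for neither gene, so these levels are uncertain.

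Igf2r, which clears IGF2 from the cell surface, was at 676 to 1304 CPM in control and 792 to 1052 CPM in TO lungs, and Insr, the insulin receptor, at 139 to 241 and 145 to 201 CPM. Their log2 fold changes were 0.16 and 0.18 in the 6 libraries and -0.079 and -0.058 in all 8, and Insrr was near or at the limit of detection, at 0 to 2.31 CPM. Among receptor substrates and adaptors Grb10, which damps IGF signaling, was the most abundant, at 923 to 1163 CPM in control and 766 to 1169 CPM in TO lungs, with a log2 fold change of -0.24 (SE 0.19, edgeR, adjusted p = 0.912). The adaptors Shc1 and Grb2 had fold changes of -0.045 and -0.060.

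Of the PI3K, Akt and mTOR branch 14 of 19 genes were higher in TO in the 6 libraries and 8 of 19 in all 8. Pik3r1, a regulatory subunit of PI3K, had the largest log2 fold change among them in the 6 libraries, at 0.31 (SE 0.13, edgeR, unadjusted p = 0.0422, adjusted p = 0.907), and Akt1 and Foxo3 had -0.033 and 0.086. Of the Ras and ERK branch 6 of 8 were lower in the 6 libraries and 7 of 8 in all 8, with Mapk3, a terminal kinase of the branch, at -0.15 in the former. In the growth hormone and STAT5 list 5 of 6 were higher in the 6 libraries and 3 of 6 in all 8. Socs2, a feedback inhibitor of growth hormone signaling, was at 99.7 to 127 CPM in control and 79.2 to 172 CPM in TO lungs (log2 fold change 0.40, SE 0.18, edgeR, adjusted p = 0.907), Ghr at 0.046 and Stat5b at 0.044.

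Genes known to be activated by FOXO factors, which Akt keeps out of the nucleus, were higher in TO for 9 of 10 in the 6 libraries, with a median log2 fold change of 0.36 and 4 at an unadjusted p under 0.05. Of all genes 49.3% were higher and 5.14% had such a p, with a median of -0.0045. Txnip, an inhibitor of glucose uptake, was at 206, 235, 478 and 218 CPM in controls 1 to 4 and 176, 339, 438 and 241 CPM in TO 1 to 4. Its highest lung was control 3, and its log2 fold change was 0.62 (SE 0.19, edgeR, unadjusted p = 0.00877, adjusted p = 0.907) in the 6 libraries and 0.099 in all 8. It shares 19.4% of its exon bases with Gm15441 on the other strand. Cited2 and Sesn3 had fold changes of 0.39 and -0.11 in the 6 libraries. With all 8 libraries 7 of the 10 were higher, the median was 0.060 and 0 had an unadjusted p under 0.05.

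**Figure D5:**
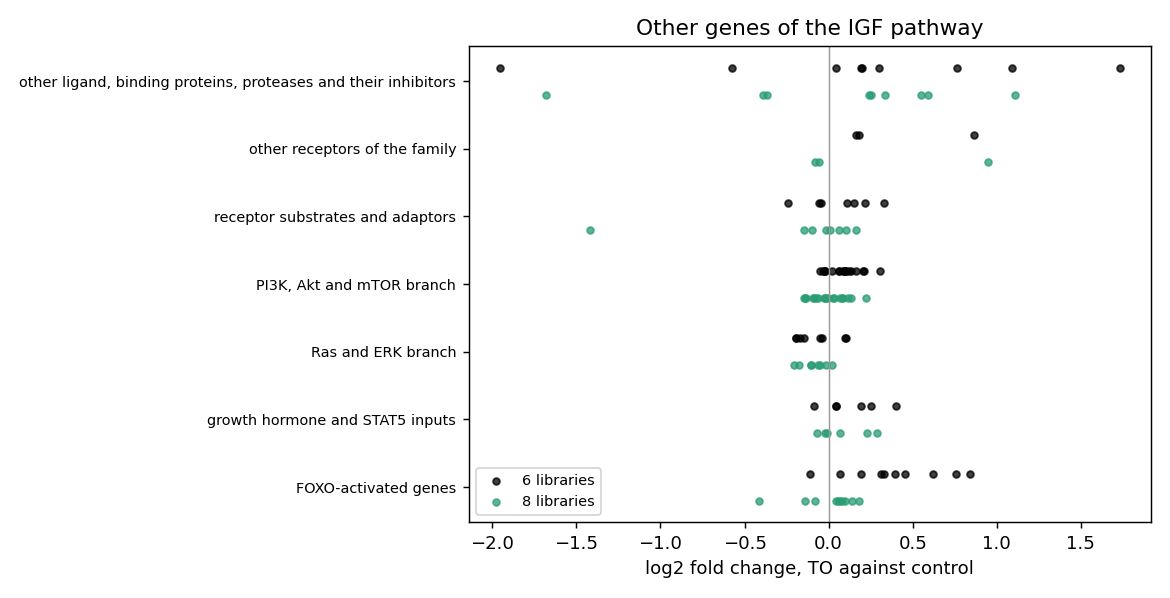
Log2 fold change of TO against control (x axis) for the other genes of the pathway, by list (y axis), with 1 point per gene, from the 6 libraries and from all 8. In the FOXO list 9 of 10 points lie above 0 with the 6 libraries, and the points of that list lie closer to 0 with all 8, at a median of 0.060.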

How the data were processed

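The authors made NexteraXT libraries from whole fetal lung RNA, sequenced them as 150-bp read pairs, aligned them to GRCm38 with STAR (version and annotation not given in the sources used here) and deposited raw counts per gene of each library, without normalization or filter. The column for both strands together was used, and 0 columns of other samples were present. Of all read pairs 23.1% to 27.1% were on no single gene, 5.00% to 5.74% because they fell on several. Of 55385 gene IDs, 54487 were those of GENCODE M21 with the version and 55144 without it. RefSeq promoters are of GRCm38.p6.

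TMM factors (0.919 to 1.08) came from all 8 libraries for CPM, and log2 CPM had a prior count of 2. Tests were run in R 4.3.3 with edgeR 4.0.16, and figures drawn with Python 3.11.15 and matplotlib 3.10.9. For edgeR fits the SE was the absolute log2 fold change divided by the square root of the F statistic. In counts simulated at these depths, edgeR called 32% of 200 genes changed by a log2 fold change of 1 and 60.5% of those changed by 2 in the 6 libraries, and 22.5% and 55% in all 8. The 200 were drawn from all genes that passed the filter, at any level, and those that then missed it counted as not called. With the replicate block in all 8 libraries 15% and 58.5% were called. Unchanged genes were called too. They numbered 13 and 18 in the 6 libraries, beside 64 and 121 changed genes called. In all 8 they numbered 10 and 14, beside 45 and 110, and with the block 15 and 20, beside 30 and 117. Libraries were simulated as independent, so these rates are not those of the members. Alternatives were DESeq2 1.42.0, limma-voom (limma 3.58.1), other scaling and filters, all 8 libraries, all but TO 1, libraries left out in turn and blocks. Lungs of the same replicate number deviated together from their group means (r = 0.122 to 0.386 over 10827 genes), and those of other pairs by -0.433 to 0.259. Each same-numbered pair passed 0.1, so the numbers were taken as pairs from the data. Control and TO lungs of the same number also carry the same digits in their specimen names, with 1 set of digits for numbers 1 and 4 together. Of the 8 libraries, 6 correlated best with their own number. Control 1 correlated more with TO 4 (r = 0.259) than with TO 1 (r = 0.122), and TO 1 more with control 4 (r = 0.156). Pairs that differ in digits reached at most r = 0.046. The matching within numbers 1 and 4 is therefore not settled by these correlations. What a number or the digits stand for is not stated.

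The members and lists were chosen with earlier results of these data known. Named are the 8 members, the 3 most abundant genes of each pathway list and any called, the genes most alike in log2 CPM (5 for Igf1 and 3 for each other member, among genes with a mean of at least 10 CPM and 5 reads in each of 7 libraries) and the summed markers. Some genes this would name are not reported here singly and stay in the counts of the lists. Pappa2, Nkx2-1, Sftpc and Msln were named after their values were seen.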

Additional observations from a re-analysis of the deposited data

Results flagged for a closer look

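A lung far from the other 3 of its group was found by Dixon's test in 15 of 130 groups of 4, where chance flags about 1 in 20, and genes within a lung are not independent. Among the members, Igf1r stood at 352 CPM in control 3 (194 to 212 in the other controls) and Igfbp4 at 244 CPM in TO 3 (355 to 359 in the other TO lungs). Control 3 was also apart, and higher than the other controls, for Irs2 at 101 CPM, Grb14 at 43.3, Foxo3 at 359.7 and Txnip at 478. TO 1, at its low depth, was apart for Igfals at 10.3, Tsc2 at 121, Rheb at 134, Hras at 27.5, Ghr at 99.8 and Stat5a at 37.9 CPM. Single further cases were Igfbp1 in control 1 at 6.13, Shc1 in control 4 at 175 and Mapk3 in TO 2 at 195 CPM.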

How the results depend on the processing

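Igf1 kept a fold change below 0, Igfbp2 below 0 and Igfbp3 and Igfbp5 above 0 in each of the 20 alternatives run. Igfbp3 was at 0.52 to 1.39 and Igf1 at -0.51 to -0.0075. Settings on all libraries but TO 1 with a block, and DESeq2 on 8 libraries, were chosen after seeing the data. In place of 0 genes, DESeq2 called 44, no filter 40, the replicate block 219 in the 6 libraries (where 2 pairs, of numbers 2 and 4, are complete), 3 in all 8 and 5 in all but TO 1, a block by the digits of the specimen names, which lungs numbered 1 and 4 share, 1 in all but TO 1, and DESeq2 with 8 libraries 7. Leaving out 1 library gave 0 to 144 genes, with 144 without TO 4 and 52 without control 4, and 0 to 1 members and pathway genes (Igfbp2 and Txnip, without TO 4). In place of 0 members, 1 was called by DESeq2 and with no filter (Igfbp3) and by the replicate block in the 6 libraries (Igfbp2), and the block changed no other call of a member.

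In place of 5 members higher in TO, 3 were with all 8 libraries, all but TO 1, the replicate block or the digits block in all 8, the digits block in all but TO 1 and DESeq2 in 8. The median log2 fold change was -0.12 with all 8 libraries, -0.060 with all but TO 1, -0.14 with the replicate block and -0.15 with the digits block in all 8, -0.054 and -0.096 with these blocks in all but TO 1, and -0.13 with DESeq2 in 8. In the same order Igf1r was at -0.34, -0.24, -0.32, -0.29, -0.27, -0.22 and -0.32, with -0.033 under the block in 6, and Igfbp6 at -0.22, -0.060, -0.36, -0.32, -0.24, -0.23 and -0.33. Igfbp4 turned to 0.0086 and 0.0068 with the blocks in 8 and 0.036 and 0.015 in all but TO 1, and Igfbp7 to -0.031, -0.042 and, with the digits block in all but TO 1, -0.0059. Leaving out 1 library gave medians of -0.016 to 0.088, log2 fold changes of -0.0079 to 0.060 for Igf1r and of -0.092 to 0.58 for Igfbp6, with the lowest median and the lowest Igfbp6 value without TO 2. The cause was not tested. TO 1, at 270078 counts, limits any value that rests on it.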
